A study of Mus musculus with 28 samples.

Results

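The canonical Wnt target genes described here are *Axin2*, *Nkd1*, *Lef1*, *Tcf7*, *Sp5*, *Sp8*, *Cdx1*, *Cdx2* and *Cdx4*. They were taken by name from the mouse annotation, as genes widely used as readouts of Wnt/β-catenin signaling, and all 9 were found among its 22367 protein-coding genes. The samples were day 4 cultures differentiated from mouse embryonic stem cells (ESCs), which had been grown as embryoid bodies and then reaggregated with VEGF, Activin A and BMP4 to induce mesoderm. Chromatin immunoprecipitation with sequencing (ChIP-seq) had been run against H3K27ac in 2 control and 2 4-OHT replicates, against H3K27me3 in 3 and 3, and against the PRC2 subunit Suz12 in 2 and 2. It had also been run against FLAG, to map Brg1, in 3 replicates whose titles name no treatment.

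Control and 4-OHT cells shared the genotype *Brg1* f/f;*Actin-CreER*. At day 2 the 4-OHT cultures received 200 nM 4-hydroxytamoxifen in tetrahydrofuran (THF), which lets CreER delete the floxed *Brg1* alleles, and the control cultures received THF alone. The control cells therefore also carried the floxed alleles and CreER, and cells without floxed alleles that received 4-OHT were not analysed here. The *Actin-CreER* transgene is not restricted to a cell type, so deletion was possible in all cells of the culture and not in mesoderm alone. The paper describes Brg1 protein as lost gradually while mesoderm is induced, and it proposes that some Brg1 activity might remain. The sample labels give the same genotype for the FLAG samples, whereas the methods of the study describe ESCs with a FLAG tag on endogenous Brg1. Those methods also give 2 biological replicates for FLAG. No FLAG sample is labelled with 4-OHT, so these samples were taken as untreated. The region lists hold no RNA or protein measure by which the deletion itself could be checked. The paper checked it by Western blot in ESCs and by RNA-seq in day 4 cultures.

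In the absence of a Wnt signal, β-catenin is degraded by a cytoplasmic complex built on Axin, and TCF/LEF proteins bound to DNA recruit Groucho/TLE corepressors. A Wnt signal stabilizes β-catenin, which enters the nucleus and binds TCF/LEF proteins at target genes. In the early embryo this pathway acts in the primitive streak, where it is needed for mesoderm formation and posterior growth. Its targets include feedback inhibitors (*Axin2*, *Nkd1*), the TCF/LEF factors themselves (*Lef1*, *Tcf7*), zinc finger factors of the Sp family (*Sp5*, *Sp8*) and caudal homeobox genes that pattern the posterior body (*Cdx1*, *Cdx2*, *Cdx4*). H3K27ac marks active promoters and enhancers. H3K27me3 is laid down by PRC2, of which Suz12 is a subunit, and marks genes kept silent.

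TCF/LEF proteins recognize a short DNA element whose core is CTTTGAT, or ATCAAAG read on the opposite strand. This core was searched on both strands of the mm9 assembly, with no other motif. It was present in the promoters of 4 of the 9 genes, *Nkd1*, *Sp5*, *Tcf7* and *Cdx1*, in a window of 300 bases that starts 250 bases upstream of the transcription start site (TSS). Of the same window at all 22367 genes, 3.46% held it. Counted from the TSS, the match began at -73 in *Nkd1*, at -104 in *Sp5*, at -195 in *Tcf7* and at -129 in *Cdx1*. The upstream bases of 3 of these promoters are shown because they hold the core next to a TSS. They are chr8:91044993-91045242 on the plus strand for *Nkd1*, chr2:70312730-70312979 on the plus strand for *Sp5* and chr11:52096682-52096931 on the minus strand for *Tcf7*. Each is written 5′ to 3′ in the direction of the gene, with the core in capitals.
Nkd1 promoter: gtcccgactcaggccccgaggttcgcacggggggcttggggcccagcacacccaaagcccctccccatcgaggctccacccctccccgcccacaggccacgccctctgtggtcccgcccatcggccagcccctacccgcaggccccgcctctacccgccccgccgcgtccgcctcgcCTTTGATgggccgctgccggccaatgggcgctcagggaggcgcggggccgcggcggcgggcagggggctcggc
Sp5 promoter: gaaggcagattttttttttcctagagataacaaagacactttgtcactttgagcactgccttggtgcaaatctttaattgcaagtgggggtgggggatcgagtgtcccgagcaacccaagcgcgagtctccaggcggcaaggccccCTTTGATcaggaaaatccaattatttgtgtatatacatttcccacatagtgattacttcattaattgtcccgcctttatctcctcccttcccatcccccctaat
Tcf7 promoter: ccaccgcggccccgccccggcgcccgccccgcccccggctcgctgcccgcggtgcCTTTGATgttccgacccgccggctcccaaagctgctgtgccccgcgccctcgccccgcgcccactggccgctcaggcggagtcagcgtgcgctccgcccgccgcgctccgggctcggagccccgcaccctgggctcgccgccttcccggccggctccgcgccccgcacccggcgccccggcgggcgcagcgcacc

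Matches also lay in H3K27ac regions that both control replicates listed. Of the 34 such regions within 50 kb of the 9 TSSs, 1 held the core in its central 300 bases, against 4.14% of the 26203 such regions in the genome. Somewhere in their length, which was up to 5825 bp, 10 held it, and no genome share was computed for whole regions. Of the 8 Brg1-bound regions within 50 kb of the TSSs, 1 held it somewhere in its length. In their central 300 bases 0 of the 8 held it, against 5.61% of the 2390 Brg1-bound regions in the genome. The 4 stretches below hold such a match, and 1 more comes from the Brg1-bound region of *Lef1* whose H3K27ac is described further on. The *Lef1* stretch was chosen after its values were seen and holds no match. All are plus-strand sequence outside annotated exons. The *Axin2* stretch lies inside the gene, but its H3K27ac region, centred at 1.39 kb, spans the TSS. That region holds the core 4 times, of which 1 is shown. They are chr11:108783633-108783832, inside the *Axin2* gene, chr3:130787730-130787929, upstream of *Lef1*, chr2:70281826-70282025, at the edge of the distal Brg1-bound region upstream of *Sp5*, chr2:70310403-70310602, inside the Brg1-bound region just upstream of *Sp5*, and chr3:130821276-130821575, inside *Lef1*. A match is a description of the letters, and a stretch without a match says only that these letters are not in it.
Axin2 intragenic H3K27ac region: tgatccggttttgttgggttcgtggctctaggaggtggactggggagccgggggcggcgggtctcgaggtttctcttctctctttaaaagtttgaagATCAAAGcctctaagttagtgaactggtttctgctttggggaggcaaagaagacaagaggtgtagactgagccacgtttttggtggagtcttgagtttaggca
Lef1 upstream H3K27ac region: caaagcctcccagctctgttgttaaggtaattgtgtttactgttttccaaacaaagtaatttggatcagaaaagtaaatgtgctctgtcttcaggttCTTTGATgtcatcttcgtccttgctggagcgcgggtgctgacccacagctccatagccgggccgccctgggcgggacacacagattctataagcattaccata
Sp5 distal H3K27ac region: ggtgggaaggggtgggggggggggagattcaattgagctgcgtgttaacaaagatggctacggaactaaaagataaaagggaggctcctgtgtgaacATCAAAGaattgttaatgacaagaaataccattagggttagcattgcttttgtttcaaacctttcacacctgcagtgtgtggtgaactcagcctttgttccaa
Sp5 proximal Brg1-bound region: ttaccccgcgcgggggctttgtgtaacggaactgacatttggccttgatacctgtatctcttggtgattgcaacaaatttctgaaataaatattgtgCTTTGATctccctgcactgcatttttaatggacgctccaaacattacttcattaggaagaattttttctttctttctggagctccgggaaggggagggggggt
Lef1 intragenic Brg1-bound region: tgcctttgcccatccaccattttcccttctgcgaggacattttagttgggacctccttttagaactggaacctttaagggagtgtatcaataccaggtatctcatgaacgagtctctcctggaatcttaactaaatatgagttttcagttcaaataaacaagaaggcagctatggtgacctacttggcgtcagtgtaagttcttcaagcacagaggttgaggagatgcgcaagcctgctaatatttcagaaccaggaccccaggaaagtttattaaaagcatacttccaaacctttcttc

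Each replicate had been turned by the authors into a list of enriched regions, with no read count or score, so read depth is unknown and the measure used here is the length in bp of a window that is covered by listed regions. The H3K27ac lists held 32161 to 41062 regions, the H3K27me3 lists 6787 to 16959 and the Suz12 lists 2913 to 4016. FLAG replicates 1 and 2 held 8021 and 8257 regions, whereas replicate 3 held 192 and stands apart. Replicate 1 of H3K27me3 stands apart in both conditions, with regions of a median width of 250 bp against 350 to 425 bp in the other replicates. Among markers of the labelled tissue, 9 of 10 mesoderm genes had H3K27ac within 5 kb of the TSS in both control lists, as had 4 of 6 pluripotency genes, 0 of 5 neural genes and 0 of 5 endoderm genes. *Kdr* was the mesoderm gene without listed H3K27ac, and *Esrrb* had none among the pluripotency genes.

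In control mesoderm the H3K27ac and H3K27me3 lists took in overlapping sets of the 9 genes, with *Nkd1*, *Lef1*, *Sp5* and *Sp8* in both. Within 5 kb of the TSS, both control lists had H3K27ac at 6 of the 9 genes (*Axin2*, *Nkd1*, *Lef1*, *Tcf7*, *Sp5* and *Sp8*), against 47.7% of all genes. At least 2 of the 3 control lists had H3K27me3 at 7 of the 9, all but *Axin2* and *Tcf7*, against 14.2% of all genes. *Lef1* is counted there on very little, 25, 0 and 50 bp in the 3 control replicates, against 850, 0 and 50 bp after 4-OHT. Both Suz12 control lists covered 3 of the 9, *Sp8*, *Cdx1* and *Cdx2*, against 6.04%. Because the cultures were measured in bulk, a gene with both marks in all cells cannot be told apart from a mixture of cells with either mark, nor fewer cells of a type from less signal per cell.

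Axin2 is a scaffold of the β-catenin degradation complex and a feedback inhibitor of the pathway. Its promoter was covered by H3K27ac within 5 kb of the TSS over 3175 and 3525 bp with THF alone, compared with 2200 and 2925 bp with 4-OHT. The 4-OHT replicates were both below the controls, and the 4-OHT mean was 76.5% of the control mean. Over 50 kb on either side of the TSS the control values were 8500 and 14000 bp (11250 ± 3889, SD, n = 2) and the 4-OHT values 4700 and 6050 bp (5375 ± 955, SD, n = 2). The wider window thus held 47.8% of the control mean, and the groups again did not overlap. Neither H3K27me3 nor Suz12 was listed in any replicate within 50 kb of *Axin2*.

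The wider window of *Axin2* held several short control regions that neither 4-OHT list contained. An intergenic region centred 22.1 kb upstream (chr11:108759201-108759975) covered 475 and 775 bp in control and 0 bp in both 4-OHT replicates. A region 41.9 kb downstream of the TSS, beyond the gene (chr11:108823226-108823825), covered 350 and 600 bp in control and 0 bp in both 4-OHT replicates. The broad region centred 10.4 kb upstream (chr11:108769276-108773250) was retained, with 3400 and 3975 bp in control, against 2500 and 2775 bp after 4-OHT. None of the 3 passed the test across all regions given below (adjusted p = 0.0516, 0.0585 and 0.0942).

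Nkd1, which binds Dishevelled and restrains Wnt signaling, had little H3K27ac. Within 5 kb of the TSS it covered 225 and 775 bp in control, against 175 and 75 bp in 4-OHT replicates. The 4-OHT values lay below both control values, all 4 being small beside those of *Axin2*. H3K27me3 covered 100, 1225 and 1525 bp in control, against 275, 1200 and 1150 bp in 4-OHT replicates, the lowest value of each condition coming from replicate 1. Suz12 was listed in 1 replicate alone, 4-OHT replicate 2, over 275 bp.

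Lef1 is a TCF/LEF factor expressed in mesoderm leaving the primitive streak. Its H3K27ac covered 5650 and 6125 bp within 5 kb of the TSS in control and 2850 and 5250 bp in 4-OHT replicates. Both 4-OHT values were lower, but they differed from each other more than the second did from control. Within 50 kb the control values were 11325 and 16114 bp (13720 ± 3386, SD, n = 2) and the 4-OHT values 5175 and 7600 bp (6388 ± 1715, SD, n = 2), or 46.6% of the control mean. In the gene body, 5512 and 10462 bp in control stood against 2212 and 2737 bp, or 31.0%. The difference was thus proportionally larger inside the gene than at the promoter, which was described and not tested. The 50 kb downstream of the TSS lie wholly inside the gene, so the wide window and the gene body share regions. The H3K27ac region centred 25.4 kb upstream, outside the gene, covered 1700 and 1675 bp in control, against 1500 and 1050 bp after 4-OHT.

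Tcf7, the other TCF/LEF factor among the 9, showed a different layout. H3K27ac within 5 kb of its TSS covered 1450 and 1775 bp in control, against 1250 and 1000 bp in 4-OHT replicates, so both 4-OHT values were lower. In the gene body the order was turned, with 1081 and 1181 bp in control, against 1456 and 1356 bp after 4-OHT. Over 50 kb the values were 1750 and 2345 bp in control, against 1795 and 1800 bp after 4-OHT, which overlap. No H3K27me3 or Suz12 region was listed within 50 kb of *Tcf7* in any replicate.

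Sp5, a zinc finger repressor induced directly by Wnt signaling, had H3K27ac across its promoter. Within 5 kb it covered 4850 and 5800 bp in control, against 4825 and 5225 bp in 4-OHT replicates, and the groups overlapped. Over 50 kb it covered 9325 and 12575 bp in control, against 7900 and 9500 bp after 4-OHT, which also overlap. A region 23.5 kb downstream of the TSS, in an intron of 1500002O10Rik (chr2:70335826-70337100), covered 425 and 1275 bp in control and 0 bp in both 4-OHT replicates, although it did not pass the test across all regions (adjusted p = 0.0743). *Sp5* also carried H3K27me3, over 75, 1150 and 4730 bp in control, against 925, 1925 and 2700 bp after 4-OHT, with a wide spread in each condition.

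Sp8, a factor of limb and posterior development, was the gene with higher H3K27ac at its TSS after 4-OHT. The control values were 2275 and 1950 bp and the 4-OHT values 2700 and 3100 bp within 5 kb, all inside the gene. Over 50 kb the order was the reverse, 6925 and 7925 bp in control against 4950 and 6300 bp after 4-OHT. The wider window takes in an intronic region of the neighbouring gene *Abcb5*, whose TSS lies outside it and which is described below. Most H3K27me3 lay on the other side of the *Sp8* TSS, upstream, in a block that covered 8200 to 9550 bp in control and 7300 to 9200 bp after 4-OHT, and so did most of Suz12. A smaller H3K27me3 region lay over the 3′ part of the gene (chr12:120089701-120091325), with 0, 225 and 0 bp in control, against 200, 650 and 1025 bp after 4-OHT, which overlap.

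The *Cdx* genes had almost no H3K27ac. None was listed within 5 kb of *Cdx2* or *Cdx4* in any replicate, and *Cdx1* had 225 bp in control replicate 2 alone. Over 50 kb, *Cdx1* had 2000 and 3350 bp in control and 0 bp in both 4-OHT replicates, but nearly all of it lay at the 5′ end of *Pdgfrb*, whose TSS is at -8.951 kb from that of *Cdx1*. Around *Cdx4*, 150 and 100 bp in control and 225 and 300 bp with 4-OHT lay at the 5′ end of *Chic1*. The wide window of *Cdx2* held 25 bp in control replicate 1 and 75 bp in 4-OHT replicate 1, both intergenic and just beyond the 3′ end of the gene. For *Cdx1* and *Cdx4* the wide windows thus mainly measured H3K27ac at neighbouring genes.

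**Figure D1:**
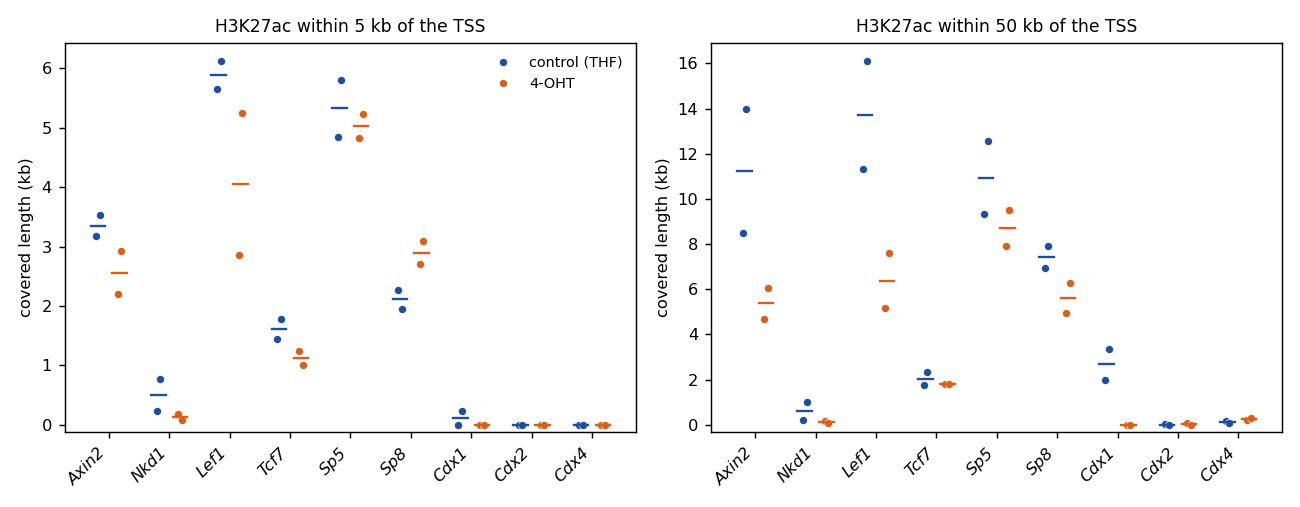
Length covered by listed H3K27ac regions (kb) within 5 kb (left) and 50 kb (right) of the TSS of each gene, with 1 point per replicate (2 control in blue, 2 4-OHT in orange) and a line at the mean. The 4-OHT points of *Axin2*, *Nkd1*, *Lef1* and *Tcf7* lie below the control points in the left panel and those of *Sp8* above, and *Axin2* and *Lef1* are most separated in the right panel, while *Cdx2* stays at or near 0.

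Across the 9 genes, 6 had enough H3K27ac within 5 kb to enter the comparison (a mean of at least 100 bp over the 4 lists). Both 4-OHT values were lower than both control values in 4 of the 6, *Axin2*, *Nkd1*, *Lef1* and *Tcf7*, against 12.9% of the 11110 genes compared. Both were higher in 1 of the 6, *Sp8*, against 42.2%. The median log2 difference of the 6 genes was -0.43 and that of all genes 0.14, where the log2 was taken of covered bp plus 100. When the lists were scaled to equal total length, the median of all genes moved to 0.24 and that of the 6 to -0.34, and *Lef1* was then among the genes whose groups overlapped. No count here is a test of the set, whose members were chosen with earlier results of these data known.

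In the fit of all 11110 genes with limma, 0 genes passed at an adjusted p of 0.05, or 0.00% in either direction, and 2303 had an unadjusted p under 0.05. *Tcf7* had a log2 difference of -0.48 (SE 0.167) with an unadjusted limma p of 0.0482 and an adjusted p of 0.238. *Sp8* had 0.44 (SE 0.120) with an unadjusted limma p of 0.0246 and an adjusted p of 0.197. For *Axin2* the log2 difference was -0.39 (SE 0.164, adjusted p = 0.297), for *Lef1* -0.59 (SE 0.322, adjusted p = 0.370), for *Nkd1* -1.28 (SE 0.628, adjusted p = 0.339) and for *Sp5* -0.08 (SE 0.112, adjusted p = 0.694). *Tcf7* and *Sp8* were thus past 0.05 before the adjustment over all genes and none of the 6 after it. With 2 replicates against 2, the exact two-sided permutation test on a single gene cannot go below p = 0.333, which *Axin2*, *Nkd1*, *Lef1*, *Tcf7* and *Sp8* each reached.

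Over 50 kb, 8 of the 9 genes entered the comparison, all but *Cdx2*. Both 4-OHT values were lower in 5, *Axin2*, *Nkd1*, *Lef1*, *Sp8* and *Cdx1*, against 20.7% of all genes with enough H3K27ac in that window, and higher in 1, *Cdx4*, against 41.3%. *Cdx1* entered through its control lists alone. In the windows of *Cdx1* and *Cdx4* the regions lay mainly at *Pdgfrb* and *Chic1*. The window of *Sp8* took in the region in *Abcb5*, which covered 1650 and 1975 bp in control, against 0 and 25 bp after 4-OHT. In the gene body both values were lower in *Axin2*, *Nkd1* and *Lef1*, against 19.2% of all genes, and higher in *Tcf7* and *Sp8*, against 35.2%.

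Markers of the labelled cell types are given beside these counts. Of the 9 mesoderm markers with enough H3K27ac, 5 (*T*, *Gsc*, *Mesp1*, *Mesp2* and *Msgn1*) had both 4-OHT values below both control values, against 12.9% of all genes, and 0 had both above, against 42.2%, and the covered length summed over the 10 markers was 30641 and 42490 bp in control, against 21493 and 31590 bp after 4-OHT. Of 5 pluripotency markers with enough H3K27ac, 1 (*Nanog*) was lower and 2 (*Sox2* and *Klf4*) were higher, against the same shares of all genes, with sums of 14844 and 12969 bp in control, against 16571 and 16421 bp after 4-OHT. Neural and endoderm markers had 0 bp in all 4 lists. Whether the H3K27ac of the Wnt targets follows from a change in the share of mesoderm cells was not tested, and the lists cannot tell it apart from a change within cells.

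Single H3K27ac regions were compared after merging the regions of the 4 lists that share at least 1 bp. Across the genome 30976 merged regions were fitted, of which 3.57% were lower and 0.533% higher after 4-OHT at an adjusted p under 0.05. Within 50 kb of the 9 TSSs lay 61 merged regions, of which 39 covered a mean of at least 100 bp and were fitted. Of these 39, 3 fell and 0 rose. The median log2 difference of the 39 was -1.28, against 0.04 over all fitted regions. *Axin2* and *Lef1* gave 11 and 9 of the 39. Regions listed in control alone, or nearly so, entered only through their control lists, which fixed their sign. The median of the 39 and the count that fell are therefore a description.

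The region that fell inside a Wnt target gene itself was in *Lef1*. It lies at chr3:130819176-130822500, centred 7.45 kb downstream of the TSS, and overlaps an exon of a *Lef1* transcript and the intron that follows. H3K27ac covered 2325 and 3325 bp of it in control and 650 and 625 bp in 4-OHT replicates. The 4-OHT replicates differed by 25 bp and lay far below both controls, with a log2 difference of -1.97 (SE 0.206, adjusted p = 0.0483 by limma). Brg1 was bound inside it, as described below.

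A second region fell 38.3 kb downstream of the *Sp8* TSS, in an intron of *Abcb5*, a transporter gene (chr12:120122126-120124100). It covered 1650 and 1975 bp in control, against 0 and 25 bp after 4-OHT, with a log2 difference of -4.09 (SE 0.246, adjusted p = 0.0477 by limma). The third was the region at the 5′ end of *Pdgfrb* in the *Cdx1* window (chr18:61204851-61207975), which covered 2000 and 3125 bp in control and was listed at 0 bp in both 4-OHT replicates (log2 difference -4.70, SE 0.295, adjusted p = 0.0477 by limma). Pdgfrb is a receptor of mesodermal and mural cells and not a canonical Wnt target. Which gene either region acts on cannot be read from these lists. The log2 differences of both depend on the added 100 bp, because the 4-OHT lists hold almost nothing there. Both regions also reached the mean needed for the fit only through their control lists, which fixed the sign. Their differences and p-values are therefore a description and are not read as support for a loss.

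All 3 calls sit close to the threshold. They held when the lists were scaled to equal length or limited to equal numbers of regions, and they were lost, with an adjusted p of 0.087 each, when the replicate number was a block. They were also lost without the filter on covered length (adjusted p = 0.0734 at *Lef1* and 0.0667 at the other 2) and with 500 bp in place of 100 bp added before the log (0.0619 at *Lef1*, 0.0559 at *Abcb5* and 0.0563 at *Pdgfrb*). Without 4-OHT replicate 1 the adjusted p was 0.275 for each, and without 4-OHT replicate 2 it was 0.216 at *Lef1*, 0.0903 at *Abcb5* and 0.163 at *Pdgfrb*. Without control replicate 2 the *Abcb5* region had an adjusted p of 0.102 and the other 2 passed. Over 10 alternatives the adjusted p of the *Lef1* region ranged from 0.0115 to 0.275, with log2 differences from -2.22 to -1.53. The *Lef1* region had both 4-OHT replicates below both controls, as had 30.6% of all fitted regions, and 28.8% of all fitted regions had both above.

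**Figure D2:**
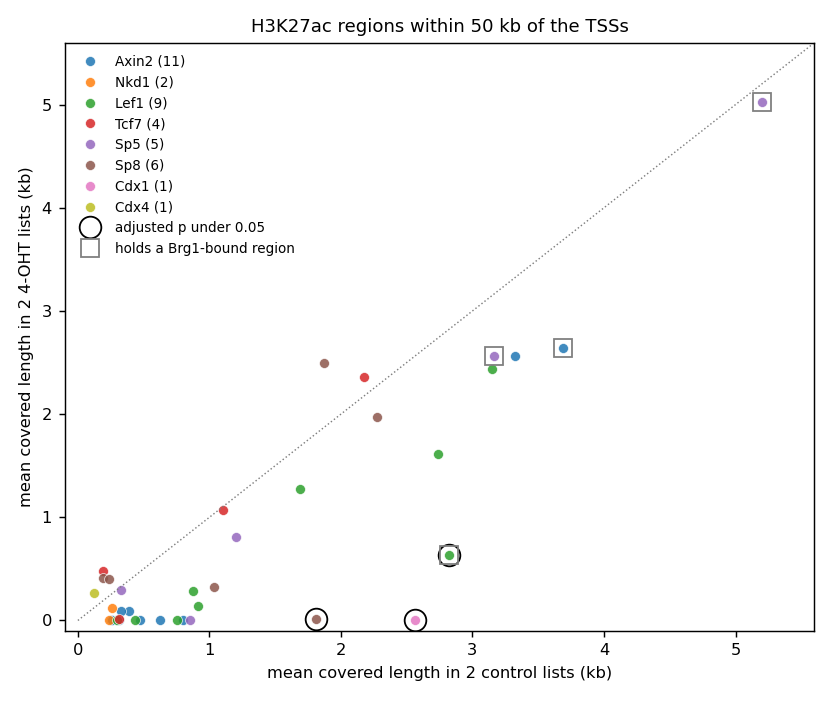
Mean covered length (kb) in the 2 control lists (x axis) and the 2 4-OHT lists (y axis) of the 39 fitted H3K27ac regions within 50 kb of the TSSs, colored by gene with the number of regions in the legend; the dotted line marks equality. The 3 circled regions fell and lie near the bottom, those near *Sp8* and *Cdx1* at about 0, and 4 regions in squares hold a Brg1-bound region, of which the *Lef1* region alone is circled.

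Of the 34 regions near the 9 genes that both control lists held, 20 were also in both 4-OHT lists and 9 were in neither. Across the genome, 20.7% of 26203 such regions were in neither 4-OHT list. Beside the 2 *Axin2* regions and the *Sp5* region given above, a region 49.0 kb inside *Lef1* (chr3:130861851-130862850) covered 500 and 1000 bp in control and 0 bp in both 4-OHT replicates (adjusted p = 0.0550). No region near the 9 genes was in both 4-OHT lists and in neither control list. No genome share was computed for that count or for the 20 regions kept in both, so neither is read as particular to these genes.

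Brg1 is the ATPase of BAF chromatin remodeling complexes. Where regions of 2 or more of the 3 FLAG lists overlapped, Brg1 was taken as bound, which gave 2390 regions in the genome. Of these, 8 lay within 50 kb of the 9 TSSs, 3 at *Sp5*, 2 at *Axin2*, 2 at *Lef1* and 1 at *Cdx1*, so that 4 of the 9 genes had one against 9.32% of all genes. None lay near *Nkd1*, *Tcf7*, *Sp8*, *Cdx2* or *Cdx4*. Within 5 kb of the TSS, *Sp5* and *Cdx1* had a Brg1-bound region, against 2.11% of all genes. The count of 8 was the same without FLAG replicate 3, which listed only 192 regions and could change it little. It was 2 without replicate 1 or without replicate 2. In the genome, 2363 bound regions were left without replicate 3, 144 without replicate 1 and 123 without replicate 2.

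The *Sp5* locus had the most. FLAG covered 1250, 1150 and 0 bp within 5 kb of its TSS in replicates 1, 2 and 3. The bound regions there were chr2:70309576-70309925, centred at -3.23 kb, and chr2:70310326-70311075, centred at -2.28 kb, which holds the CTTTGAT stretch printed above. The third, chr2:70281951-70282825, centred at -30.6 kb, was in all 3 FLAG lists with 775, 875 and 125 bp. H3K27ac over that distal region (chr2:70280451-70283925) covered 2850 and 3475 bp in control, against 2250 and 2875 bp after 4-OHT, which overlap.

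At *Lef1* the bound regions lay at chr3:130820726-130820875 and chr3:130821251-130821600, centred at 7.41 and 8.04 kb, both within the H3K27ac region that fell. That H3K27ac region had 450, 600 and 125 bp of FLAG in the 3 replicates, and the second bound region was in all 3 lists. The short pieces of H3K27ac that remained there in both 4-OHT replicates overlapped both bound regions, as the map of the locus shows. At *Axin2* the bound regions were chr11:108771226-108771600, centred at -10.3 kb inside the broad retained H3K27ac region, and chr11:108822801-108822950 at 41.2 kb. The *Cdx1* region (chr18:61199326-61199550) was centred at -3.58 kb and overlapped H3K27ac in control replicate 2 alone.

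Of the 34 H3K27ac regions that both control lists held, 4 contained a Brg1-bound region, against 5.74% of such regions in the genome. They are the *Sp5* promoter, the *Sp5* distal region, the *Axin2* region at -10.4 kb and the *Lef1* region at 7.45 kb. Of the 4, the *Lef1* region fell, and for the other 3 the log2 differences were -0.05, -0.30 and -0.47 (adjusted p = 0.742, 0.350 and 0.0942 by limma). The other 2 regions that fell held no Brg1-bound region, although FLAG replicate 1 listed 150 bp within that at *Pdgfrb*.

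**Figure D3:**
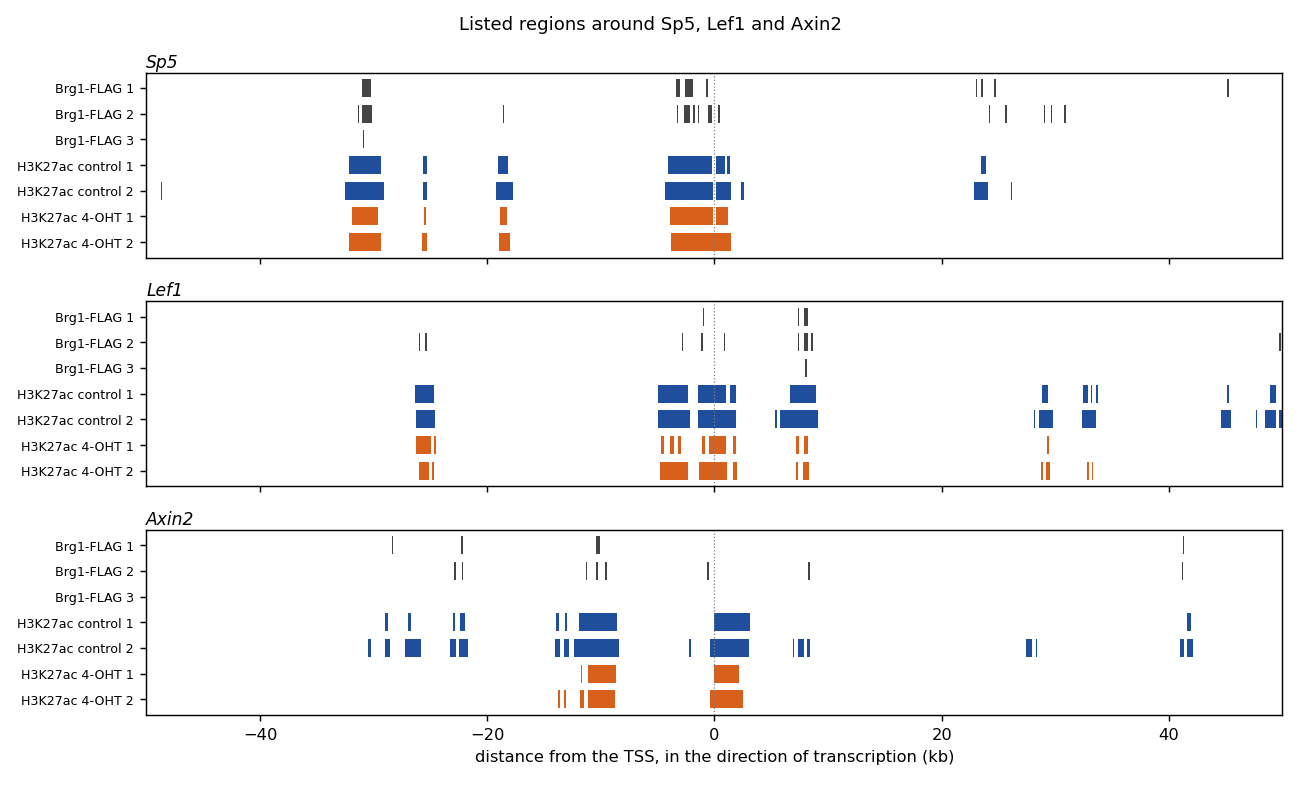
Listed Brg1-FLAG regions (dark grey, 3 replicates) and H3K27ac regions (control in blue, 4-OHT in orange, 2 replicates each) within 50 kb of the TSSs of *Sp5*, *Lef1* and *Axin2*, drawn by distance from the TSS in kb along the direction of transcription. The promoter blocks stay in all 4 H3K27ac lists, the block near 7.45 kb in *Lef1* shrinks to short pieces, and the short outlying blocks of *Axin2* at -22.1 and 41.9 kb are absent from both 4-OHT lists.

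Cdx2, needed for trophectoderm and for posterior body growth, was the most heavily Polycomb-marked of the 9. Within 5 kb of its TSS, H3K27me3 covered 5976, 10001 and 10001 bp in control, against 4426, 9701 and 9701 bp in 4-OHT replicates. The window was full in control replicates 2 and 3, and replicate 1 was lower in both conditions. Suz12 covered 6680 and 7101 bp in control, against 5755 and 6480 bp after 4-OHT, both 4-OHT values being lower, and it covered the whole gene body of 6466 bp in all 4 replicates. The wider window, with 21675, 32900 and 32725 bp of H3K27me3 in control and 12675, 28975 and 26800 bp after 4-OHT, includes a separate block around *Pdx1*, a homeobox gene whose TSS is 37.311 kb away.

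Sp8 carried H3K27me3 over 4224, 5374 and 4924 bp in control, against 4051, 4651 and 5124 bp in 4-OHT replicates. Suz12 differed more, with 3725 and 5825 bp in control, against 975 and 2850 bp after 4-OHT, or 40.1% of the control mean. Both 4-OHT values of Suz12 lay below both controls, on unscaled and on scaled lists, while those of H3K27me3 overlapped unless the lists were scaled, when they lay above control. The Suz12 difference did not pass the test (log2 difference -1.42, SE 0.566, adjusted p = 0.325 by limma). *Sp8* was the gene in which higher H3K27ac and lower Suz12 lay around the same TSS.

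Cdx1 had H3K27me3 over 773, 2475 and 3225 bp in control, against 700, 3600 and 3725 bp after 4-OHT, which overlap. Its Suz12 covered 1075 and 1025 bp in control, against 1150 and 1350 bp after 4-OHT, so both 4-OHT values were higher, although they overlapped with control once the lists were scaled. *Cdx4* had 1275, 925 and 300 bp of H3K27me3 in control and 175, 675 and 275 bp after 4-OHT. Suz12 at *Cdx4* was at most 50 bp in any replicate. For *Cdx1* and *Cdx2* the Suz12 difference did not pass (log2 difference 0.23, SE 0.183, adjusted p = 0.605 for *Cdx1*, and -0.17, SE 0.0965, adjusted p = 0.477 for *Cdx2*, by limma).

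At *Lef1* and *Sp5*, Suz12 was listed mainly after 4-OHT. *Lef1* was listed at 0 bp in both control replicates and had 75 and 900 bp in the 4-OHT replicates. *Sp5* had 100 and 0 bp in control, against 225 and 1350 bp after 4-OHT. The groups did not overlap on unscaled or scaled lists, but they overlapped when the lists were limited to equal numbers of regions. The 2 4-OHT replicates of each gene differed widely, and neither gene passed (log2 difference 2.06, SE 1.01, adjusted p = 0.418 for *Lef1*, and 2.28, SE 0.936, adjusted p = 0.340 for *Sp5*, by limma). Both genes reached the mean of 100 bp needed for the comparison only through their 4-OHT lists, so that these differences are a description. When 4-OHT replicate 1 is left out, the 900 bp of a single list stands at *Lef1* against 0 bp in both controls, and the value below the threshold that limma then gave is not read as a result.

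**Figure D4:**
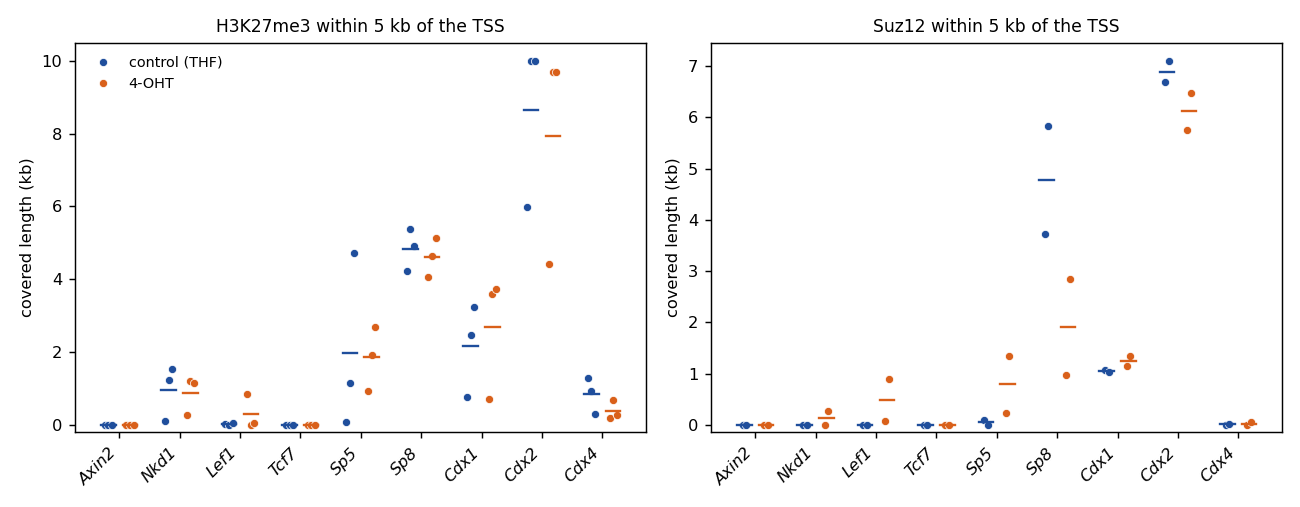
Length covered by listed H3K27me3 regions (left, 3 control and 3 4-OHT replicates) and Suz12 regions (right, 2 and 2) within 5 kb of the TSS (kb), with 1 point per replicate and a line at the mean. *Cdx2* is highest in both panels, *Axin2* and *Tcf7* stay at 0, and *Sp8* has lower Suz12 points after 4-OHT beside overlapping H3K27me3 points.

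For H3K27me3, 7 of the 9 genes entered the comparison and in 0 of the 7 did the groups fail to overlap, in either direction. Over all 3086 genes compared, all 4-OHT values were lower in 15.8% and higher in 0.259%. *Lef1* entered through 4-OHT replicate 1 alone. The median log2 difference was 0.17 for the 7 genes and -0.57 for all genes, and 0.60 and -0.16 once the lists were scaled. With limma 0 genes passed (0.00% in either direction, 250 with an unadjusted p under 0.05), and the adjusted p of the 7 genes lay between 0.673 for *Cdx4* and 0.925 for *Nkd1*. The exact permutation test of 3 against 3 cannot go below p = 0.1, and *Cdx4* came lowest, with p = 0.2.

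H3K27me3 lists of the same replicate number were taken as pairs, because they deviated together, although the sample titles state no pairing. The difference was therefore also taken within each number. With replicate number as a block in limma, the adjusted p within 5 kb of the TSS lay between 0.279 and 0.777 for the 7 genes. *Cdx2* and *Cdx4* had the lowest and *Nkd1* the highest. Within 5 kb of the TSS the 4-OHT value was lower in all 3 pairs at *Cdx2* (-1550, -300 and -300 bp) and *Cdx4* (-1100, -250 and -25 bp), and higher in all 3 at none of the 7 genes. Of all genes, 59.2% were lower in every pair and 1.10% higher. These differences are unscaled, and each 4-OHT list covered less in total than the control list of its number. The totals were 8.38, 11.0 and 10.0 Mb in control, against 4.74, 8.99 and 7.62 Mb after 4-OHT. On lists scaled to equal totals the log2 difference within 5 kb moved from -0.17 to 0.33 at *Cdx2* and from -0.94 to -0.56 at *Cdx4*. At *Sp5* the pairs went both ways, with 4-OHT minus control at 850 and 775 bp in pairs 1 and 2 and at -2030 bp in pair 3. At *Sp8* it was -173 and -723 bp in pairs 1 and 2 and 200 bp in pair 3. Over 50 kb, *Sp8* was lower in all 3 pairs (-975, -1150 and -575 bp), as were *Cdx2* and *Cdx4*, against 65.4% of all genes. In that window 0 of the 7 were higher in all 3, against 0.743%. Once the lists were scaled, every 4-OHT value of *Sp8* over 50 kb lay above every control value.

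For Suz12, 5 of the 9 genes entered. Both 4-OHT values were lower at *Sp8* and *Cdx2*, against 7.06% of the 1798 genes compared. They were higher at *Cdx1*, and at *Lef1* and *Sp5*, which had entered only through the lists in which they were high, against 36.3%. Nothing is read from the count of higher genes for that reason. No gene passed with limma (0.00%, 306 with an unadjusted p under 0.05).

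**Figure D5:**
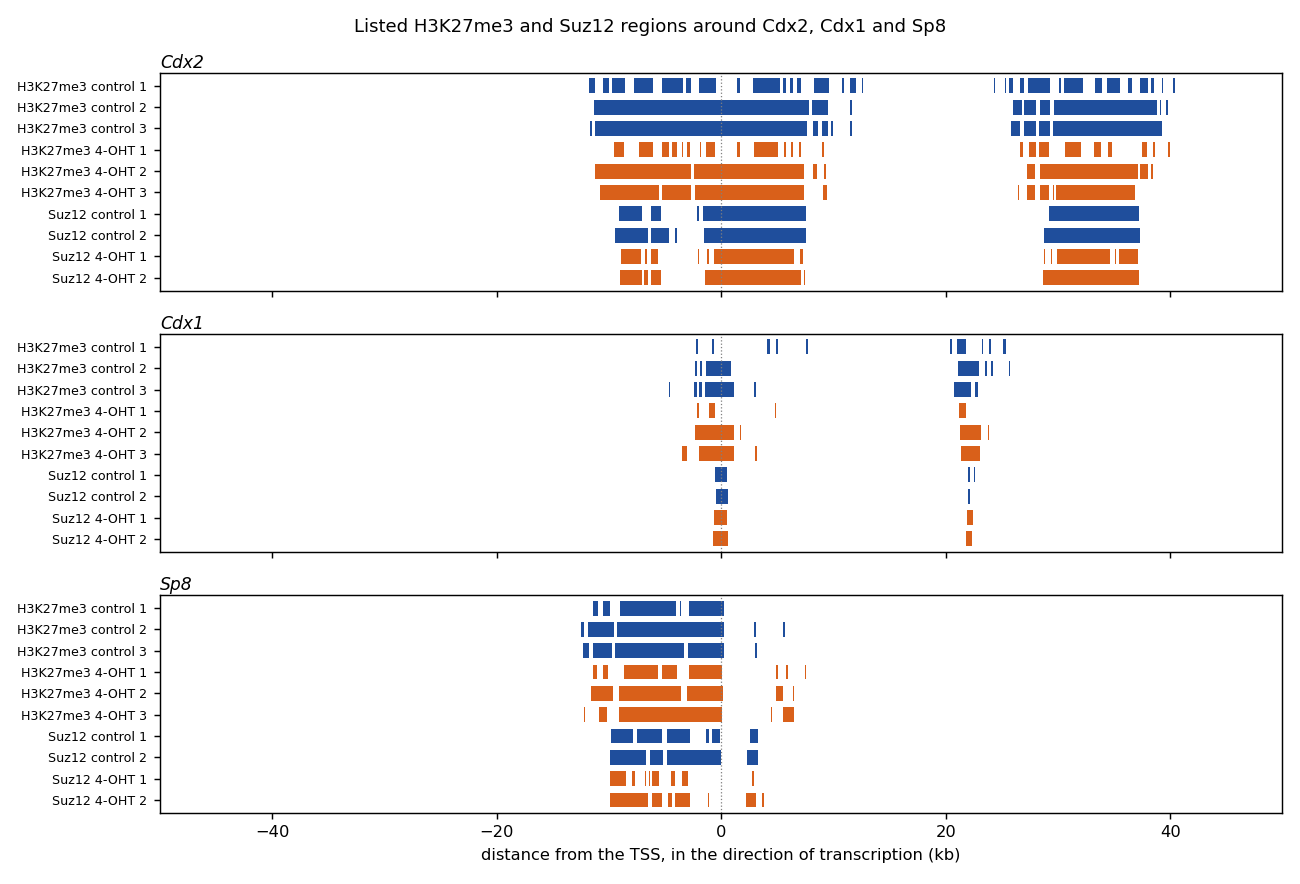
Listed H3K27me3 regions (3 control and 3 4-OHT replicates) and Suz12 regions (2 and 2) within 50 kb of the TSSs of *Cdx2*, *Cdx1* and *Sp8*, by distance from the TSS in kb. The blocks at *Cdx2* are broken into pieces in both H3K27me3 replicates 1 and nearly continuous in the others, and the Suz12 blocks between about -5 kb and the TSS of *Sp8* are shorter in both 4-OHT replicates.

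The rest of the pathway gives the setting of these genes. Among 17 receptors and co-receptors, 15 entered the H3K27ac comparison at the TSS, and both 4-OHT values were lower at 3 (*Fzd1*, *Fzd7* and *Lgr4*) and higher at 2 (*Fzd3* and *Lgr6*), beside shares of 12.9% lower and 42.2% higher over all genes, which hold for each of the lists. Of 11 cytoplasmic components, which include the kinases and scaffolds that control β-catenin, all 11 entered, with 1 lower (*Apc*) and 8 higher. Of 11 nuclear cofactors, 10 entered, with 5 lower and 2 higher (*Ctnnbip1* and *Pygo2*). The lower ones were the TCF genes *Tcf7l1* and *Tcf7l2*, the coactivators *Bcl9* and *Bcl9l*, and the corepressor *Tle3*. Of 8 further response genes, 5 entered, with 1 lower (*Ccnd1*) and 1 higher (*Ascl2*). None of the genes of these 4 lists passed with limma for H3K27ac, H3K27me3 or Suz12, and those named for H3K27ac or H3K27me3 were chosen after their values were seen.

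H3K27me3 in the same lists entered the comparison at 9 receptors, 1 cytoplasmic component, 2 nuclear cofactors and 5 further response genes. All 4-OHT values were lower at 4 of these 17 genes, *Fzd8*, *Apc2*, *Ascl2* and *Nkd2*, against 15.8% of all genes, and higher at 0, against 0.259%. The median log2 differences were -0.71 for receptors and -0.56 for the further response genes, beside 0.17 for the 7 Wnt targets that entered. No test of the difference between these lists was made.

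The genes whose profile was closest to each Wnt target were found by the distance between log2(covered bp + 100) within 5 kb of the TSS over all 17 lists, leaving out genes within 50 kb. *Cdx2* was closest to *Evx2* (distance 0.27) and *Dmbx1* (0.29), both homeobox genes. *Tcf7* was closest to 2310022B05Rik (0.19) and *Tmem17* (0.24), and *Axin2* to *Crb2* and *Zfp687* (0.44 each), for which 11 and 12 of the 17 lists were at 0 bp. *Lef1* was nearest to *Itgb8* (4.06) and *Mixl1* (4.15), the latter a primitive streak homeobox gene, and *Sp5* to *Grrp1* (4.14) and *Zfpm1* (4.72). *Cdx4* was nearest to *Gsn* (1.10) and *Col9a2* (1.36), *Cdx1* to *Btbd17* (2.29) and *Fam123a* (2.38), *Sp8* to *Bmi1* (2.10) and *B4galnt2* (3.21), and *Nkd1* to *Trim9* (2.77) and *Pmp22* (3.08). Distances are comparable between these genes only with that in view, since genes at 0 bp in most lists lie close to many others.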

How the data were processed

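ChIP-seq lists of enriched regions were analysed from 17 samples of day 4 mouse mesoderm cultures. The 11 input samples had no list. The authors deposited, for each replicate separately, chromosome, start and end of each region on mm9, with no other value (unit "other": positions in bp). Bowtie and mm9 are named in the submitters' processing notes, and no Bowtie version is given in the sources used here. The caller used a Poissonian model against input, with a threshold of 1e-12, or for FLAG of 1e-06 and 2-fold enrichment. The labels describe biological replicates. Edges are multiples of 25 bp.

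Samples were grouped by their labels. The 9 genes, the other lists and the motif were chosen with earlier results of these data known. TSSs are the 5′ ends of gene records in GENCODE vM1 for that assembly, on which no listed region passes a chromosome end. Covered bp was computed within 5 and 50 kb of the TSS and in the gene body. Genes or merged regions with a mean of at least 100 bp were fitted on log2(covered bp + 100), unscaled, with limma 3.58.1 (R 4.3.3, trended empirical Bayes, two-sided, Benjamini-Hochberg over all features, adjusted p under 0.05). Single values were compared by exact two-sided permutation tests. Depth is unknown, so neither intervals nor floors are given, and a longer covered length can come from deeper sequencing.

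Same-numbered H3K27me3 lists deviated together from their condition means (correlations 0.666, 0.449 and 0.46 over 3086 genes), so their numbers were taken to pair them. Replicates 2 and 3 also correlated across numbers (0.187 and 0.266), so the pairing is an inference. H3K27ac (0.342) and Suz12 (0.0564) have 2 replicates a condition and share only a number. Other genes were named when their TSS lay in a 50 kb window, when a region lay in them, or as the 2 closest profiles. Pathway genes were to be named if called, and since none was, those named are members of small counts, chosen after their values were seen. Alternatives were other pseudocounts, filters, windows, scalings, overlaps, a replicate block and each replicate left out. Calculations were tested on simulated data. Python 3.11.15, NumPy 2.4.6, pandas 2.3.3, SciPy 1.17.1 and Matplotlib 3.10.9 were used.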

Additional observations from a re-analysis of the deposited data

How the results depend on the processing

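Covered length depends on depth and on the calling threshold, neither of which can be varied from the lists, and with 2 replicates a condition the calls turn on single libraries. Where 1 library is left out, the lone sample of its condition is assumed to vary like the other condition. For H3K27ac within 5 kb of the TSS, 0 genes passed, against 120 (86 lower, 34 higher) with lists scaled to equal total length and 0 to 260 with each replicate left out (260 without control replicate 1), and 0 of the 9 Wnt targets passed under any alternative. For Suz12, 0 genes passed, against 12 after scaling and 0 to 255 with each replicate left out (255 without 4-OHT replicate 1, 96 without 4-OHT replicate 2), and 0 to 1 of the Wnt targets did, the 1 being *Lef1* without 4-OHT replicate 1, where a single 4-OHT list stands against 0 bp in both controls. For H3K27me3, 0 genes passed under every alternative, including the use of replicates 2 and 3 alone, which was added after the data were seen. Of H3K27ac regions 1271 passed, 3 of them near the 9 genes. These counts were 4587 and 8 with 25 bp added before the log, 0 and 0 with 500 bp added, 0 and 0 without the filter (56584 regions fitted), 2346 and 6 after scaling, and 0 to 7777 and 0 to 16 with each replicate left out. Near the 9 genes this left 16 regions without control replicate 1, 6 without control replicate 2 and 0 without either 4-OHT replicate. The Brg1-bound regions near the 9 genes numbered 8, against 43 when 1 FLAG list sufficed and 2 to 8 with each replicate left out (2 without replicate 1 or 2, 8 without replicate 3). The cause of these differences was not tested.

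With replicate number as a block, the paired fit gave 0 calls for each mark within 5 kb of the TSS, as did the block on scaled lists for H3K27me3, the one mark for which it was run, added after the data were seen. In the region fit the block gave 0 calls in all and 0 near the 9 genes. It changed no other call.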
